A study of Mus musculus with 117 samples.

Results

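The 6 genes described here encode intermediate filament proteins: Gfap (glial fibrillary acidic protein), Vim (vimentin), Nes (nestin), Synm (synemin), Sync (syncoilin) and Des (desmin). They were chosen by name, as 6 of the 27179 Entrez gene identifiers counted in each of 117 libraries of mouse spinal cord RNA. All 6 passed the filter on low counts in each of the 49 comparisons. In RiboTag mice, Cre recombinase switches a ribosomal protein, Rpl22, to an HA-tagged form, and ribosomes of the cells with Cre are pulled down together with the mRNA on them. The precipitate of each mouse gave a RiboTag library, called astrocyte RNA below, and the lysate left after precipitation gave a Flow library, which holds RNA of all cells of the tissue block. There were 70 RiboTag and 47 Flow libraries in 28 groups.

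In the line labelled Aldh1l1-CreERT2-RiboTag, tamoxifen had switched the tag on in adult astrocytes. These mice were uninjured (4 females) or had received a crush spinal cord injury (SCI) at vertebral level T10. Injured females were taken at 2 d (5 mice) or at 5, 14, 28, 42 or 70 d (4 mice each), and injured males at 5 d or 14 d (4 mice each). Every mouse of this line gave a RiboTag and a Flow library. In the line labelled 73.12 GFAP Cre-RiboTag, called mGfap-Cre here, Cre is made without tamoxifen from a mouse Gfap promoter. Both libraries came from mice at 14 d after SCI (5 females) and uninjured at postnatal day 63 (P63, 3 males and 2 females). Uninjured younger mice gave RiboTag libraries only, at P0 (4 males), P3 (2 females and 1 male), P7 (1 female and 2 males), P14 (3 females and 2 males), P21 (2 and 2) and P35 (2 and 2). The labels give an age for the postnatal groups alone, and all groups carried the RiboTag allele together with Cre, so no library came from a mouse without the tag. Injured tissue reached 1 mm to each side of the lesion. Because this Cre was driven by the promoter of one of the 6 genes and is not switched on at a set time, the mGfap-Cre libraries hold RNA of any cell that used that promoter then or before.

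Intermediate filaments are ropes of coiled-coil proteins that give cells their mechanical strength, and unlike actin and microtubules their make-up differs from one cell type to the next. Gfap, Vim and Des are type III proteins, which can form filaments by themselves. Gfap is the classical filament of mature astrocytes, Vim that of mesenchymal cells, endothelia and immature glia, and Des that of muscle. Nes and Synm are large proteins with long tails that need a type III partner to enter a filament. Nes is known from neural stem and progenitor cells, and Synm as a link between filaments and the dystrophin complex at the membrane. Sync, first known from muscle, also joins filaments of other proteins. A rise of Gfap and Vim, and the return of Nes, are textbook signs of astrocyte reactivity.

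The members lie on 6 chromosomes of GRCm38.p6 (mm10), on which RefSeq places Gfap (14580) at chr11:102887336-102897200 on the minus strand, Vim (22352) at chr2:13574311-13582826 on the plus strand and Nes (18008) at chr3:87971093-87980451 on the plus strand. Synm (233335) lies at chr7:67730161-67759742 on the minus strand, Sync (68828) at chr4:129287256-129309383 on the plus strand and Des (13346) at chr1:75360292-75368579 on the plus strand. Reads were counted over whole genes, without a stated use of strand. Of the exonic bases of Sync, 2284 (50.0%) also belong to exons of Rbbp4, a gene of the opposite strand for a histone-binding protein. Reads of Sync and Rbbp4 cannot be told apart there, and Sync values are uncertain. In the 2 d Flow libraries of mice 1, 2 and 4, Sync had 0 reads. Rbbp4 was at 91.2 to 124 CPM in that group, so its reads were not counted for Sync there. If the shared bases gave no counts, values of Sync per kilobase of all its exons are too low. Des shares 222 exonic bases (7.2%) with the predicted gene Gm15179, which had 0 to 52 reads per library. A level is given in CPM, the usual depth-scaled count, here on totals of gene reads scaled by the TMM method. Where genes are set against each other it is given in CPM per kilobase of exons (4086 bases for Gfap, 1834 for Vim, 6126 for Nes, 7866 for Synm, 4564 for Sync and 3065 for Des).

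The 250 bases before the start site are printed for the 4 members that were called after injury in astrocyte RNA and whose exons share no bases with another gene, because these genes carry the injury and age results below. They were read from RefSeq (GRCm38.p6) on the gene's own strand, at chr11:102897201-102897450 for Gfap, chr2:13574061-13574310 for Vim, chr3:87970843-87971092 for Nes and chr7:67759743-67759992 for Synm. Capitals mark matches to 3 short motifs.
Gfap: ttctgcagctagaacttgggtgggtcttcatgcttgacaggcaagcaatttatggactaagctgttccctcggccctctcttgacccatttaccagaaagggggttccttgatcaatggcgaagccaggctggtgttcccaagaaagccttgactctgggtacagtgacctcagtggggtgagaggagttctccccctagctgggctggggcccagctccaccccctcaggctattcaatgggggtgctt
Vim: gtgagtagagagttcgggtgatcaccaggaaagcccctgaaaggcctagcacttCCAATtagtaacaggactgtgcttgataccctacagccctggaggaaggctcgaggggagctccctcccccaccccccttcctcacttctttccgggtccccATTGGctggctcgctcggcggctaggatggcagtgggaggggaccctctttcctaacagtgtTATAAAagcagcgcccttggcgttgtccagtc
Nes: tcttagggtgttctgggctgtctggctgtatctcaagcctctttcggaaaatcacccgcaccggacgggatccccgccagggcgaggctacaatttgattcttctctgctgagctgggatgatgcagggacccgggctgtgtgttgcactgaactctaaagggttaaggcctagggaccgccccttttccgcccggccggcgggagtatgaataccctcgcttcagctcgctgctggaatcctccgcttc
Synm: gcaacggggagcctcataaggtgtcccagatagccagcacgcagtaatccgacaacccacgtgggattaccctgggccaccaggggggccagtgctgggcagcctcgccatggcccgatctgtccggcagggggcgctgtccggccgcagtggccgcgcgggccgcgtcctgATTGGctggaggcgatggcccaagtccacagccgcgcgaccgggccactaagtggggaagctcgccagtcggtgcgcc

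The motifs searched on both strands, in the window from 250 bases before to 50 bases after the start, were the TATA box (TATAAA), the CCAAT box (CCAAT, or ATTGG on the other strand) and the AP-1 motif (TGANTCA), and no 2 matches overlapped. Vim held a TATA box 32 bases before its start and CCAAT boxes at 196 bases (plus strand) and 94 bases (minus strand), and Synm held a CCAAT box at 78 bases (minus strand). None of the 3 motifs was in the windows of Gfap, Nes, Sync or Des, which says only that these letters are not in this window. Of 32851 windows of all genes, 13.6% held TATAAA, 37.4% the CCAAT box and 7.81% the AP-1 motif, so that these matches are common ones.

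Total reads on genes were 67253656 to 128400518 per RiboTag library (median 93933978) and 40710428 to 136008399 per Flow library (median 97467271). Log2 differences are given ± the standard error (SE) of edgeR's quasi-likelihood fit, and a gene was called at a Benjamini-Hochberg adjusted p (false discovery rate, FDR) under 0.01 over all genes tested. The p-values rest on the spread between mice within groups, estimated over all groups of a fit together. Where RiboTag and Flow libraries were fitted together, both libraries of a mouse were treated as independent, except where a pairing is named. Some libraries stood apart. In the 5 Flow libraries at 2 d, 15763 to 17934 genes were detected, against 18775 to 20411 in the other 42 Flow libraries. The 4 P0 libraries had few detected genes (15354 to 16900), and both libraries of mGfap-Cre mouse 1 at 14 d were rich in skeletal muscle RNA. Mice 2 and 4 at 2 d, whose Flow libraries had the fewest detected genes, and mouse 1 were each left out as an alternative. P0 is the reference of all ages and could not be left out. One Flow library at 5 d carries a male label that its title and its RiboTag partner do not, and it was kept with the females. In uninjured Aldh1l1 mice the summed level of 12 astrocyte markers was 53360.5 to 66897 CPM in RiboTag and 1731 to 2193 CPM in Flow libraries, with no marker at 0. After SCI, it was 12418 to 15258 CPM at 2 d, 11019.9 to 15934 at 5 d and 24238 to 29195 at 70 d in RiboTag libraries. The summed level of 12 myeloid markers in RiboTag libraries moved the other way. It was 65.7 to 131 CPM in uninjured mice, 1773 to 3146 at 2 d, 17166 to 22119 at 5 d, 12404 to 18849 at 14 d and 1817 to 5469 at 70 d, and 12 of 12 markers were called higher at each time. In a bulk library, fewer cells of a type and less RNA per cell cannot be told apart, and the part of these myeloid reads in the values below was not tested.

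In uninjured astrocytes, Gfap dominated the family. Per kilobase, Gfap was at 3921 to 4871 CPM in the 4 Aldh1l1 mice, Vim at 68.8 to 119, Synm at 2.51 to 4.41, Nes at 1.23 to 3.46, Des at 0.572 to 1.69 and Sync at 0.199 to 0.346. Gfap, Vim and the rest did not overlap in this order, whereas Synm and Nes overlapped each other, as did Nes and Des. The 6 genes together took 1.51% ± 0.186 of all gene reads (SD, n = 4), and Gfap made up 97.7% ± 0.455 of their total per length. After SCI the share of gene reads was 2.24% ± 0.298 at 2 d (SD, n = 5), 3.13% ± 0.190 at 14 d and 3.41% ± 0.234 at 70 d (SD, n = 4).

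The first comparison asked how these genes changed in astrocytes over 70 d after SCI. Vim and Nes rose at once and most, and Gfap rose later and by less. Synm rose at 2 d and again from 28 d, Sync rose at every time, and Des was called at 5 d alone. All 6 comparisons shared the 4 uninjured mice. At the 6 times from 2 d to 70 d, 4, 4, 4, 5, 5 and 5 of the 6 genes were called, all higher, beside 60.1%, 56.8%, 47.3%, 41.9%, 43.3% and 45.3% of the 18205 genes tested, in either direction.

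Gfap was at 17634, 19901, 18408 and 16021 CPM in the astrocyte RNA of the 4 uninjured mice. At 2 d it was at 15084, 22316, 19064, 17249 and 18361 CPM, within and around the uninjured range. The difference was log2 0.04 ± 0.11 (adjusted p = 0.763), with a 95% interval of -0.18 to 0.26. At 5 d it was at 22246, 20425, 18104 and 28155 CPM, a difference of log2 0.28 ± 0.12 (adjusted p = 0.036) that missed the threshold. At 14 d all 4 mice, at 35997, 29742, 36342 and 34614 CPM, lay above all uninjured mice, and Gfap had risen by log2 0.87 ± 0.12 (adjusted p = 2.44e-07), or 1.83-fold. Later values were 36113, 36823, 36361 and 40479 CPM at 28 d and 33596, 35721, 36047 and 34363 CPM at 42 d. At 70 d they were 38596, 34838, 39415 and 37920.4 CPM. These 3 groups were log2 1.06 ± 0.12, 0.97 ± 0.12 and 1.07 ± 0.12 over uninjured (adjusted p = 1.13e-08, 4.89e-08 and 1.06e-08). One mouse at 28 d, at 40479 CPM, was the highest of all Gfap values in this line.

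Vim was low in uninjured astrocytes, at 210.2, 218, 155 and 126 CPM. At 2 d it was at 3080.2, 3291, 3728, 3596 and 3723 CPM, a rise of log2 4.30 ± 0.16 (adjusted p = 3.33e-19), or 19.8-fold. At 5 d it was at 3437, 3707, 3911 and 4306 CPM, 21.3-fold over uninjured (log2 4.41 ± 0.16, adjusted p = 1.04e-18). It then stood lower, at 2073, 1743, 1978 and 2437 CPM at 14 d and 2770.1, 2261, 2712 and 2211 at 28 d. Values were 2299.9, 1957, 2225 and 2605 at 42 d and 2228, 2689, 1885 and 2320.5 at 70 d. The fold over uninjured was still 12.9 at 70 d (log2 3.69 ± 0.16, adjusted p = 6e-17), and no injured mouse overlapped the uninjured ones at any time.

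Nes rose furthest on the log scale. From 13.6, 21.2, 11.7 and 7.56 CPM in uninjured mice it reached 1230.1, 787, 807, 890.1 and 879 CPM at 2 d, 68.04-fold higher (log2 6.09 ± 0.34, adjusted p = 2.77e-14). It was at 172, 216, 226 and 289.9 CPM at 5 d and had come down to 72.9, 49.8, 67.1 and 90.4 CPM at 14 d. These levels were log2 4.03 ± 0.31 and 2.32 ± 0.29 over uninjured (adjusted p = 1.79e-11 and 1.63e-07). It was at 110.2, 67.1, 125 and 62.97 CPM at 28 d and 62.5, 77.1, 70.2 and 74.3 CPM at 42 d. At 70 d it was at 64.8, 111, 46.9 and 65.5 CPM. The last difference was log2 2.41 ± 0.29 (adjusted p = 1.36e-07), or 5.32-fold. The injured mice did not overlap the uninjured ones at any time. Mouse 1 at 2 d, at 1230.1 CPM, stood above the other 4 of its group.

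Synm, the linker between filaments and membrane, was at 32.5, 34.7, 24.5 and 19.7 CPM in uninjured mice. At 2 d it was at 60.2, 72.7, 77.05, 74.7 and 82.4 CPM, a rise of log2 1.41 ± 0.17 (adjusted p = 2.86e-08). At 5 d (30.3 to 48.4 CPM) and 14 d (29.9 to 42.2 CPM) the groups overlapped, and the differences of 0.41 (adjusted p = 0.0401) and 0.26 (adjusted p = 0.213) missed the threshold. With the males added, the 5 d difference passed it (log2 0.41, adjusted p = 0.00914). At 28, 42 and 70 d it was at 36.4 to 47.4, 33.7 to 52.4 and 34.03 to 58.1 CPM. It was called higher, by log2 0.61 ± 0.17, 0.63 ± 0.17 and 0.71 ± 0.17 (adjusted p = 0.00416, 0.00312 and 0.000987). These 3 calls were lost when each pair of groups was fitted alone (adjusted p = 0.0121, 0.0146 and 0.0133). The call at 28 d was kept in 4 of 8 fits that left out 1 library and that at 42 d in 5 of 8. The libraries whose omission ended them were uninjured 3 and 4, 28 d 1 and 3 and 42 d 2. At 28 d all injured mice lay above the uninjured ones, and at 42 d and 70 d the groups overlapped.

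Sync was near the bottom of the range, at 1.48, 1.58, 1.32 and 0.909 CPM in uninjured mice, 3.97, 3.82, 4.28, 1.98 and 3.27 at 2 d and 3.98, 3.47, 2.08 and 2.94 at 5 d. The rise was log2 1.39 ± 0.26 (adjusted p = 3.02e-05) at 2 d, log2 1.21 ± 0.27 (adjusted p = 0.000276) at 5 d. At 28 d it stood at 4.82 to 7.64 CPM, higher by log2 2.18 ± 0.28 (adjusted p = 1.18e-07). At 14, 42 and 70 d the differences were 1.96 ± 0.27, 1.91 ± 0.27 and 1.17 ± 0.27 (adjusted p = 5.12e-07, 1.01e-06 and 0.000591). The 70 d call was lost with these 2 groups alone (log2 1.14, adjusted p = 0.0154). Rbbp4, which shares 50.0% of Sync's exonic bases, was at 113 to 123 CPM in uninjured and 144 to 163 CPM in 2 d astrocyte libraries.

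Des was at 5.19, 4.61, 2.88 and 1.75 CPM in uninjured astrocyte RNA and at 6.35, 9.24, 11.9 and 6.38 CPM at 5 d, a difference of log2 1.21 ± 0.38 (adjusted p = 0.00701). The call was kept in 4 of 8 fits that left out 1 library and was lost without uninjured mouse 3 or 4 or 5 d mouse 2 or 3. At 2, 14, 28, 42 and 70 d the differences were 0.60, -0.16, 0.25, 0.39 and 0.63 (adjusted p = 0.144, 0.744, 0.612, 0.4 and 0.164), and none was called. Summed markers of pericytes and smooth muscle (8 genes), cells that make Des, were at 144 to 185 CPM in uninjured, 536 to 752 in 2 d and 459.6 to 652 in 5 d astrocyte libraries (2 higher and 2 lower of 8 tested at 5 d), and their part in the result was not tested.

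**Figure D1:**
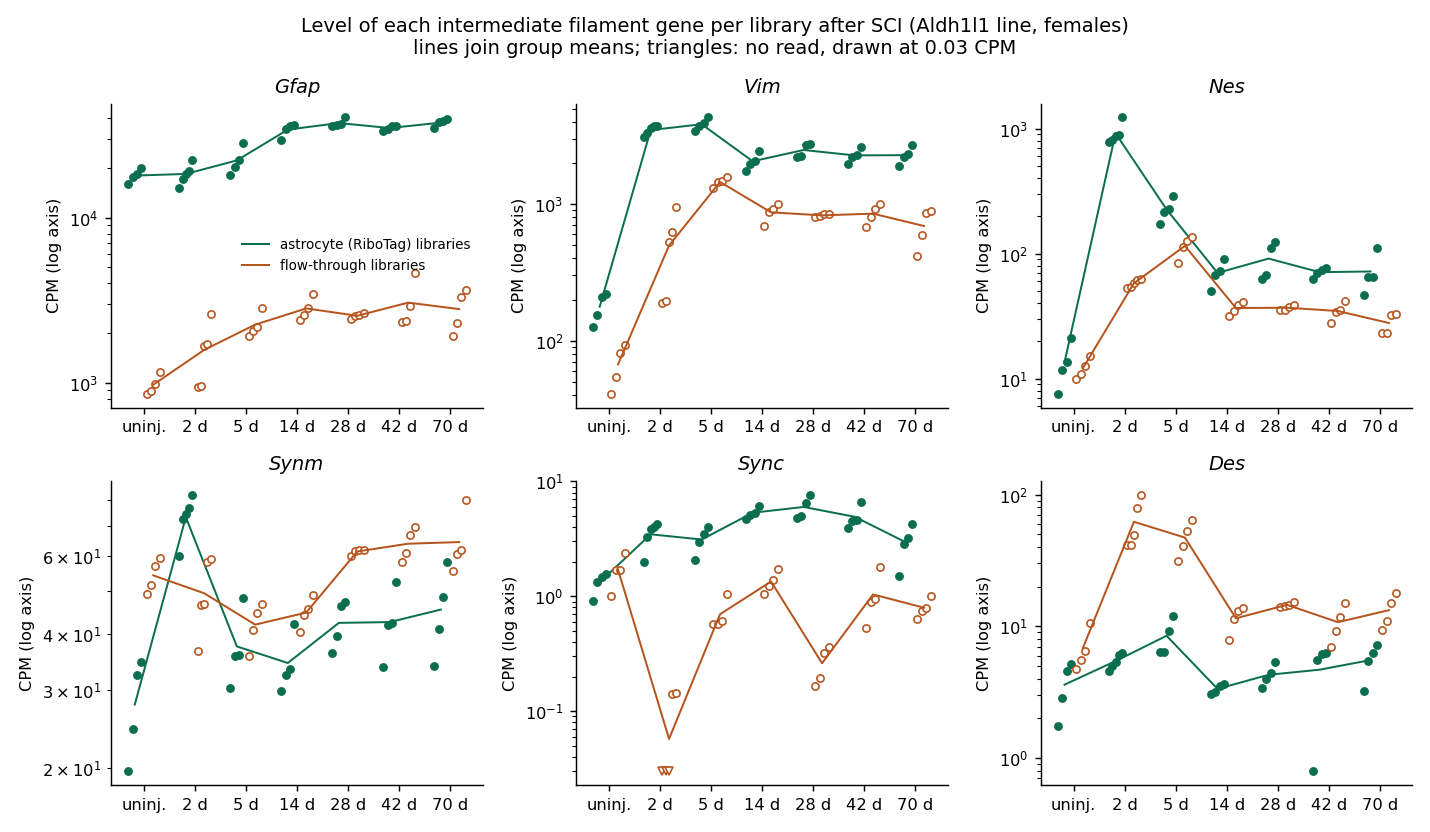
Level of each of the 6 genes in CPM (log axis) in female Aldh1l1 mice, uninjured and at 2 to 70 d after SCI, in RiboTag (astrocyte) and Flow libraries, with 1 point per library and a line through the group means. In astrocyte RNA, Vim and Nes lie above all uninjured mice from 2 d on, and Gfap does so from 14 d on. In Flow, 3 of the 5 Sync libraries at 2 d hold 0 reads.

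Between neighbouring times, most of the change fell before 14 d. From 2 d to 5 d Nes fell by 2.05 ± 0.27 on the log2 scale (adjusted p = 7.38e-07). Synm fell by 1.00 ± 0.17 (adjusted p = 1.26e-05), 2 of 6 members where 41.4% of all genes were called. From 5 d to 14 d Gfap rose by 0.59 ± 0.12 (adjusted p = 0.000189). Vim, Nes and Des were lower, at log2 -0.93 ± 0.14, -1.72 ± 0.28 and -1.37 ± 0.38 (adjusted p = 6.85e-06, 2.98e-05 and 0.00614), where 25.3% of all genes were called. The Des call was kept in 2 of 8 fits that left out 1 library, and ended without 5 d mouse 2 or 3 or any 14 d mouse. Sync, at 0.75 (adjusted p = 0.0274) over this step, passed the threshold with the males added (log2 0.91, adjusted p = 8.84e-05) and with the pair of groups alone (log2 0.75, adjusted p = 0.00437). After 14 d edgeR called 0 members between neighbouring times, where 7.4%, 1.67% and 12.6% of all genes were called. At an unadjusted p under 0.05 there were 1, 0 and 1 members, and DESeq2 called 0 in each step.

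The make-up of the family per length differed between times. In astrocyte RNA, Gfap and Vim made up 97.7% and 2.13% of the per-kilobase total of the 6 genes in uninjured mice, 68.4% and 29.1% at 2 d and 71.5% and 27.9% at 5 d. Vim thus took a far larger part of the total in the first days. At 14, 28, 42 and 70 d the share of Vim was 11.8% ± 1.19, 12.9% ± 1.78, 12.6% ± 1.53 and 11.9% ± 2.08 (SD, n = 4 each), below the early times and above uninjured. Nes made up 2.34% ± 0.734 of the total at 2 d (SD, n = 5) and 0.0480% ± 0.0162 in uninjured mice (SD, n = 4). In Flow libraries, Vim made up 12.8% ± 4.37 in uninjured mice, 57.4% ± 3.85 at 5 d and 34.7% ± 2.18 at 70 d (SD, n = 4 each). At 5 d its share there was above that of Gfap (39.7% ± 4.20). At 2 d the Flow shares scattered widely, with Gfap at 56.00% ± 22.5 (SD, n = 5), and Des made up 3.10%. These shares are descriptions without a test.

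**Figure D2:**
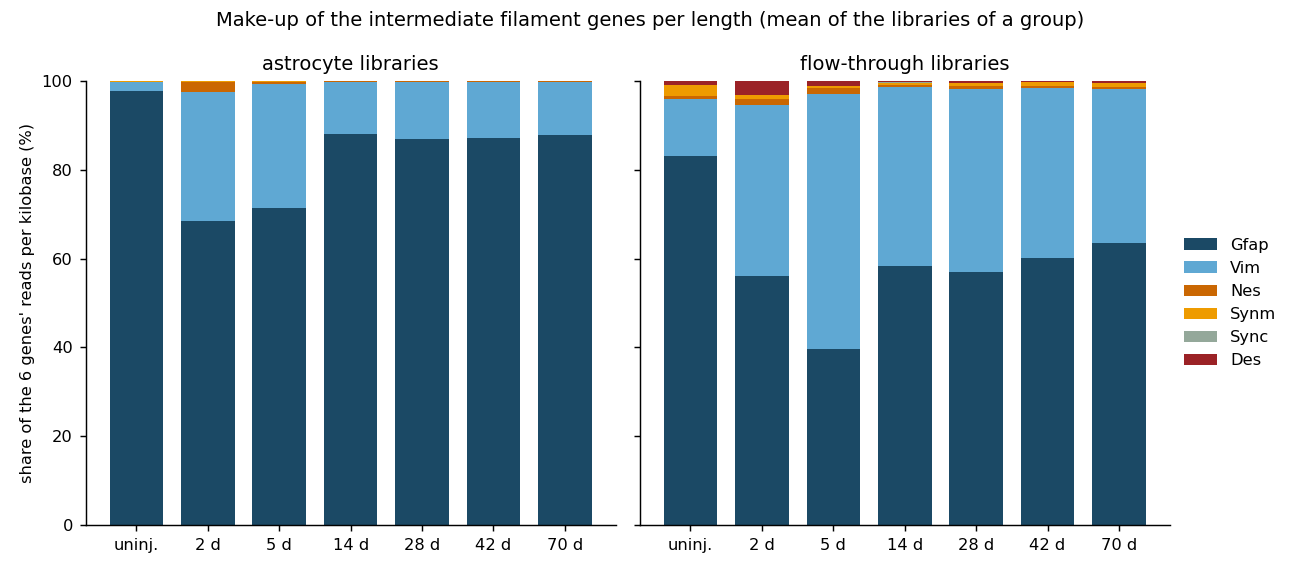
Mean share (percent) of each of the 6 genes in their summed CPM per kilobase of exons, by group. Bars are for RiboTag and Flow libraries of female Aldh1l1 mice, uninjured and at 2 to 70 d after SCI. Each bar adds to 100%. Gfap makes up 97.7% in uninjured Aldh1l1 astrocytes, 68.4% at 2 d and 87.9% at 70 d, with Vim filling most of the rest.

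The Flow libraries show the same genes in the tissue around the precipitated RNA, here against the Flow of the 4 uninjured mice. Vim and Nes rose at all 6 times, and so did Gfap, with a 2 d call that rested on few libraries. Des was called higher at 2, 5, 28 and 70 d, Sync was called lower at 2 d and 28 d, and Synm was called at no time. At the 6 times from 2 d to 70 d, 5, 4, 3, 5, 3 and 4 of the 6 genes were called, beside 65.6%, 49.6%, 44.1%, 48.9%, 44.6% and 37.6% of the 19207 genes tested. DESeq2's size factors in place of TMM moved the median log2 difference of all genes by over 0.1 at 2 to 42 d. At 5 d it went from 0.05 to -0.09, so that differences of that size depend on the scaling.

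Vim was at 92.6, 80.6, 54.1 and 40.9 CPM in uninjured Flow and at 946, 190.2, 529, 197 and 623 at 2 d, a rise of log2 2.91 ± 0.35 (adjusted p = 2.11e-08). At 5 d it was at 1302, 1571, 1462 and 1472 CPM (log2 4.51 ± 0.38, adjusted p = 5.73e-11). At 70 d it was at 594, 420.1, 866 and 883 CPM (log2 3.38 ± 0.37, adjusted p = 1.14e-08). At each of these times all injured libraries lay above the uninjured ones. Nes was at 12.6, 15.04, 10.8 and 9.97 CPM in uninjured Flow and 53.9, 62.9, 57.9, 53.4 and 61.2 CPM at 2 d. Later it was at 84.6, 137, 113 and 127 CPM (5 d) and 22.97, 23.2, 32.8 and 32.3 CPM (70 d). Without mice 2 and 4 the 2 d rise of Vim was log2 3.38 and that of Nes log2 2.26, both called. The Nes rise was log2 2.29 ± 0.15 (adjusted p = 1.41e-13) at 2 d, log2 3.33 ± 0.16 (adjusted p = 7.96e-16) at 5 d and log2 1.22 ± 0.15 (adjusted p = 1.56e-07) at 70 d. Flow markers of endothelia (5 genes), cells in which Vim and Nes are also known, summed to 119.5 to 131 CPM in uninjured and 263 to 359 at 5 d. Those of fibroblasts (6 genes) summed to 260.5 to 584 and 4571 to 5461 CPM, and the part of either list in the rise was not tested.

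Gfap was at 894, 978, 1160.2 and 858 CPM in uninjured Flow and at 943, 1678, 1708, 2628 and 952 at 2 d. Mice 2, 3 and 4 lay above all uninjured mice and mice 1 and 5 among them, and the difference was log2 0.74 ± 0.25 (adjusted p = 0.00927). Without mice 2 and 4 it was log2 0.32, adjusted p = 0.221. The call was kept in 3 of 9 fits that left out 1 library, and ended without uninjured mouse 1, 2 or 4 or 2 d mouse 2, 3 or 4. It was also lost with DESeq2 size factors (log2 0.64, adjusted p = 0.0243), with DESeq2's own test and without the low-count filter. The same held with these 2 groups alone (log2 0.65, adjusted p = 0.0809). At 5 d it was at 1921 to 2846 CPM (log2 1.29 ± 0.26, adjusted p = 0.000115). At 70 d it was at 1930.1 to 3626 CPM (log2 1.54 ± 0.26, adjusted p = 1.91e-05), at both times with all injured mice above all uninjured ones. Synm was at 49.3 to 59.3 CPM in uninjured Flow and 35.8 to 46.9 at 5 d, and its differences ran from -0.29 to 0.27. At 5 d it was called lower with DESeq2 size factors (log2 -0.43, adjusted p = 0.00756) and with these groups alone (log2 -0.33, adjusted p = 0.00609).

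Des in Flow was at 10.6, 6.48, 4.76 and 5.52 CPM in uninjured mice, 41.8, 78.6, 41.3, 49.6 and 99.5 at 2 d and 31.3, 63.8, 52.6 and 40.95 at 5 d. At both times all mice lay above all uninjured ones, and the rise was log2 3.21 ± 0.31 (adjusted p = 2.77e-10) and log2 2.86 ± 0.31 (adjusted p = 5.78e-09). Without mice 2 and 4 the 2 d rise was log2 3.15, still called. At 14 d (0.76, adjusted p = 0.0295) and 42 d (0.66, adjusted p = 0.057) Des missed the threshold, and passed it without uninjured mouse 1 (log2 1.06, adjusted p = 0.00444 at 14 d and log2 0.96, adjusted p = 0.00923 at 42 d). At 28 d and 70 d it was log2 1.08 ± 0.29 (adjusted p = 0.00254) and log2 0.97 ± 0.29 (adjusted p = 0.00736). These calls were kept in 5 of 8 and 3 of 8 fits that left out 1 library. Both ended without uninjured mouse 2, 3 or 4, and the later one also without 70 d mouse 2 or 3. The 70 d call was lost with DESeq2 size factors (log2 0.88, adjusted p = 0.0144). The summed pericyte and smooth muscle markers in the same libraries were 69.8 to 111 CPM uninjured, 731 to 1482 at 2 d and 810.1 to 1043 at 5 d (5 higher and 0 lower of 8 tested at 2 d). Skeletal muscle markers (7 genes) were at 22.4 to 74.2 CPM in uninjured, 22.7 to 63.7 in 2 d and 21.4 to 46.5 in 5 d Flow. The part of either list in the Des result was not tested. Sync in Flow was at 1.01, 2.40, 1.70 and 1.70 CPM in uninjured mice. At 2 d it had 0 reads in mice 1, 2 and 4, where 3 reads would be 0.0397, 0.0704 and 0.05002 CPM, and 0.142 and 0.144 CPM in mice 3 and 5. The fitted difference was log2 -4.71 ± 0.66 (adjusted p = 3.36e-07) at 2 d, a value that depends on the prior count, and log2 -4.12 without mice 2 and 4. It was log2 -2.71 ± 0.63 (adjusted p = 0.000559) at 28 d, with levels of 0.363, 0.164, 0.196 and 0.321 CPM. At 5 d (-1.21, adjusted p = 0.0837) and 70 d (-1.08, adjusted p = 0.138) it missed the threshold. Sync passed it at 5 d with edgeR 4 (log2 -1.22, adjusted p = 0.000916), DESeq2 (log2 -1.35, adjusted p = 0.00485) and these groups alone (log2 -1.25, adjusted p = 0.00244). At 70 d it did so with edgeR 4 (log2 -1.07, adjusted p = 0.00337) and with these groups alone (log2 -1.06, adjusted p = 0.00919). Rbbp4 itself was at 82.95 to 91.3 CPM in uninjured and 91.2 to 124 CPM in 2 d Flow libraries.

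Enrichment sets the RiboTag library against the Flow library of the same mice and asks how far each filament gene is higher in the precipitate. Myeloid markers summed to 17166 to 22119 CPM in RiboTag and 7096 to 9007 CPM in Flow libraries at 5 d. They summed to 12404 to 18849 and 9239 to 11332 CPM at 14 d. At 2 d they were lower in RiboTag (1773 to 3146 against 7715 to 11930 CPM). The part of myeloid RNA in the ratios below was not tested. Gfap and Vim were higher in astrocyte than in Flow RNA in all 9 groups, Nes was so in 8, and Des was lower in 6 of them by the threshold. Synm lay on either side, and Sync, with its shared exons, was above Flow in the 6 injured Aldh1l1 groups. In uninjured Aldh1l1 mice and at the 6 times from 2 d to 70 d, 3, 6, 5, 6, 6, 5 and 5 of the 6 genes were called, beside 62.1%, 55.7%, 64.4%, 62.4%, 64.4%, 46.8% and 45.7% of the genes tested. In mGfap-Cre mice 5 were called at P63 and 4 at 14 d after SCI, beside 67.8% and 46.9%.

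Gfap was 18.7-fold higher in astrocyte RNA of uninjured Aldh1l1 mice (log2 4.22 ± 0.13, adjusted p = 1.44e-10). After SCI its log2 ratio was 3.50 ± 0.31, 3.20 ± 0.17, 3.52 ± 0.14, 3.87 ± 0.07, 3.53 ± 0.26 and 3.73 ± 0.22 at the 6 times from 2 d to 70 d. It was 5.32 ± 0.10 in mGfap-Cre mice at P63 and 3.74 ± 0.22 at 14 d after SCI. Vim had log2 ratios of 1.42 ± 0.28 uninjured, 2.79 ± 0.40 at 2 d, 1.30 ± 0.10 at 5 d and 1.70 ± 0.23 at 70 d. Its ratio lay below that of Gfap at each of these times. Nes did not differ by the threshold in uninjured mice (log2 0.18 ± 0.27, adjusted p = 0.562, 95% interval -0.35 to 0.71). At 2 d it was 15.5-fold higher in astrocyte RNA (log2 3.95 ± 0.15, adjusted p = 5.89e-09). Without both libraries of mice 2 and 4, the 2 d log2 ratio was 3.86 for Gfap, 2.33 for Vim and 4.07 for Nes, each called. Without mouse 1, the 14 d log2 ratio in mGfap-Cre mice was 3.77 for Gfap, 1.11 for Vim and 1.01 for Nes, each called too. At 5 to 70 d the Nes log2 ratio was 0.85 to 1.34, called each time.

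Synm was lower in astrocyte than in Flow RNA in uninjured mice (log2 -0.95 ± 0.16, adjusted p = 0.000262) and higher at 2 d (log2 0.53 ± 0.15, adjusted p = 0.00721). The 2 d call was kept in 5 of 10 fits that left out 1 library, and ended without RiboTag library 2, 3, 4 or 5 or Flow library 5. It was lost without both libraries of mice 2 and 4 (log2 0.63, adjusted p = 0.018). It was lower again at 14, 28 and 42 d, at log2 -0.46 ± 0.10, -0.55 ± 0.08 and -0.57 ± 0.13 (adjusted p = 0.00148, 7.69e-05 and 0.00295). The 42 d difference was no longer called without 42 d RiboTag library 1 or Flow library 4. In mGfap-Cre mice it was lower at P63 (log2 -0.69 ± 0.06, adjusted p = 4.21e-08) and higher at 14 d (log2 0.77 ± 0.16, adjusted p = 0.00173, or log2 0.89 without mouse 1). Pairing the 2 libraries of a mouse as a replicate block added calls for Synm at 5 d (log2 -0.28, adjusted p = 0.00355) and 70 d (log2 -0.55, adjusted p = 0.00082).

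Des was lower in astrocyte than in Flow RNA, with log2 -3.54 ± 0.27 (adjusted p = 4.34e-07) at 2 d and log2 -2.58 ± 0.27 (adjusted p = 1.29e-05) at 5 d. It was still lower later, with log2 -1.86 ± 0.16 (adjusted p = 3.1e-07) at 14 d, log2 -1.78 ± 0.14 (adjusted p = 2.28e-07) at 28 d and log2 -1.29 ± 0.27 (adjusted p = 0.00193) at 70 d. Without both libraries of mice 2 and 4, the 2 d log2 ratio was -3.61 for Des and 5.29 for Sync, both called. In uninjured mice Des missed the threshold (-0.90, adjusted p = 0.0358) and passed it with the replicate block (log2 -0.95, adjusted p = 0.00207). Sync was higher in astrocyte RNA by log2 2.06 ± 0.27 at 5 d and 4.5 ± 0.30 at 28 d, and by a fitted 5.74 ± 0.93 at 2 d against Flow libraries of which 3 had 0 reads. In mGfap-Cre mice at 14 d, Sync (1.77, adjusted p = 0.0325) and Des (-3.46, adjusted p = 0.0315) missed the threshold. Without both libraries of mouse 1, Sync (log2 1.84, adjusted p = 0.00743) and Des (log2 -3.32, adjusted p = 1.31e-05) were called. With the replicate block they were called too (log2 1.73, adjusted p = 0.00666 for Sync and log2 -3.34, adjusted p = 1.19e-06 for Des).

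**Figure D3:**
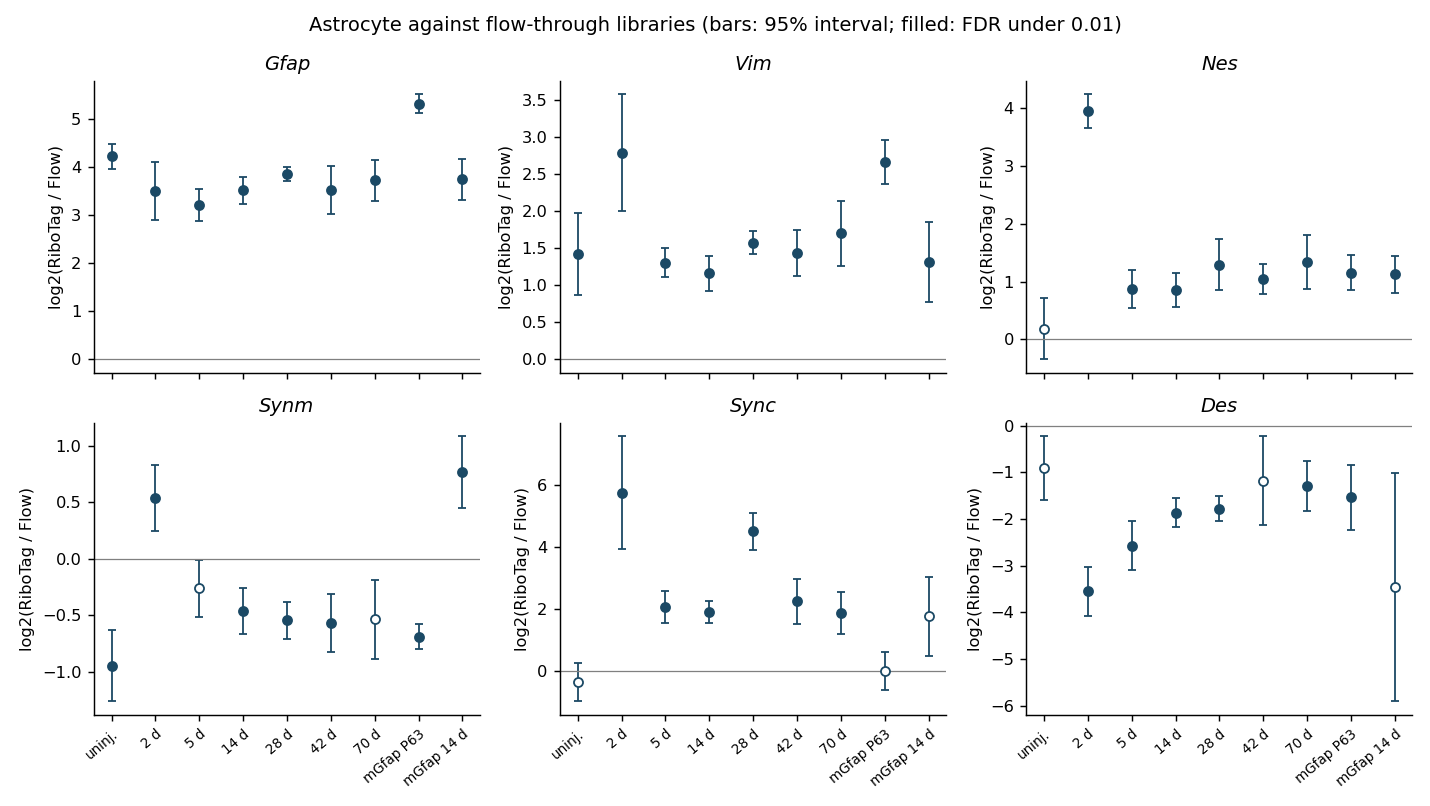
Log2 ratio of RiboTag to Flow RNA for each of the 6 genes in the 7 female Aldh1l1 groups and the 2 mGfap-Cre groups, with bars for the 95% interval and filled points past the threshold. Points above 0 are higher in astrocyte RNA. Gfap lies at 3.20 or above throughout, Des lies below 0 throughout, and Synm crosses 0.

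Whether a gene's change after SCI differed between astrocyte and Flow RNA was tested directly as the difference of the 2 log2 changes. At the 6 times from 2 d to 70 d, 5, 2, 1, 2, 1 and 2 of the 6 genes were called, beside 50.7%, 28.5%, 24.5%, 28.4%, 23.3% and 17.7% of 19640 genes. The median difference over all genes was itself 0.30 at 2 d and 0.19 at 5 d. At 2 d Nes rose by 3.98 ± 0.31 more in astrocyte RNA (adjusted p = 3.98e-16). Synm rose more there by 1.69 ± 0.21 (adjusted p = 8.08e-10) and Vim by 1.57 ± 0.36 (adjusted p = 0.000162). Des rose by less there, with a difference of -2.43 ± 0.47 (adjusted p = 1.32e-05). Without both libraries of mice 2 and 4 these 4 calls were kept, at log2 4.08 for Nes, 1.76 for Synm, 1.1 for Vim and -2.52 for Des. After 2 d Vim was not called, with differences of 0.11, -0.09, 0.25, 0.09 and 0.36 at 5 to 70 d and 95% intervals such as -0.63 to 0.84 at 5 d. The value at 5 d turned to -0.002 with DESeq2 size factors.

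Nes was also called at 28 d (log2 1.21 ± 0.31, adjusted p = 0.00155) and 70 d (log2 1.25 ± 0.31, adjusted p = 0.00171), calls lost without 28 d mouse 3 and without 70 d mouse 2. Synm was called at 5 d (log2 0.91 ± 0.22, adjusted p = 0.000662), and Sync at all 6 times, by log2 2.30 at 70 d to 6.25 at 2 d. Gfap had differences below 0 at each time, -0.51, -0.80, -0.55, -0.26, -0.62 and -0.41, none past the threshold. With the 2 libraries of a mouse as a replicate block, 5, 5, 2, 3, 2 and 3 members were called. The shares of all genes given above are of the fit without this block, so these counts have no share beside them. The added calls were Gfap (log2 -0.81, adjusted p = 0.0052), Nes (log2 0.98, adjusted p = 0.004) and Des (log2 -1.41, adjusted p = 0.00797) at 5 d. Further ones were Synm at 14, 28 and 70 d (log2 0.67, adjusted p = 0.000456 at 14 d) and Nes at 42 d (log2 1.03, adjusted p = 0.00336).

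The mGfap-Cre line gave a second set of injured and uninjured adult RiboTag libraries. Synm was higher in the mGfap-Cre line at 14 d after SCI, and by a less stable call also without injury. Gfap, the gene whose promoter drives Cre in that line, rose in the Aldh1l1 line and not detectably in the mGfap-Cre line. Summed oligodendrocyte markers (10 genes) in mGfap-Cre RiboTag libraries were 9905 to 13977 CPM at P63 and 26634 to 40349 at 14 d. Astrocyte markers there were 47651 to 53468 and 11738 to 25059 CPM. In the Aldh1l1 line, uninjured and at 14 d, the oligodendrocyte markers were 3273 to 8026 and 2060.2 to 2743 CPM. Its astrocyte markers were 53360.5 to 66897 and 21432 to 26255 CPM. The part of these shifts in the Gfap result was not tested. At P63, Gfap was at 21622, 27774, 24448, 25973 and 25794 CPM in mGfap-Cre RiboTag libraries. At 14 d after SCI it was at 24506, 27901, 24846, 19755 and 28330.3 CPM, so the groups overlapped, with a difference of log2 0.08 ± 0.11 (adjusted p = 0.544) and a 95% interval of -0.13 to 0.30. The change in the mGfap-Cre line was smaller than that in the Aldh1l1 line (log2 -0.82 ± 0.17, adjusted p = 0.00153), a call kept in all 18 fits that left out 1 library. Gfap was the 1 member called in this test, beside 12.7% of 17848 genes. For Synm (log2 0.67 ± 0.19, adjusted p = 0.0168) and Vim (log2 -0.72 ± 0.24, adjusted p = 0.0346) the difference of change missed the threshold. Vim passed it with DESeq2 (log2 -0.82, adjusted p = 0.00405). Synm passed it without Aldh1l1 uninjured mouse 4 or without Aldh1l1 14 d mouse 4. At P63, Gfap was log2 0.44 ± 0.12 (adjusted p = 0.0126) above the uninjured Aldh1l1 mice. At 14 d it was log2 -0.38 ± 0.12 (adjusted p = 0.0174) against that line. Both missed the threshold. The P63 difference passed it with DESeq2 (log2 0.46, adjusted p = 0.000301) and with these 2 groups alone (log2 0.48, adjusted p = 0.000513). The 14 d difference passed it with DESeq2 size factors (log2 -0.45, adjusted p = 0.00623) and with DESeq2 (log2 -0.45, adjusted p = 0.000191). With labelled sex as a covariate the call for Gfap was kept as well. The lines also differed in whether tamoxifen was given, which cannot be told apart from the Cre. Injured mice and uninjured Aldh1l1 mice carry no age label, so a difference in age from the P63 mice cannot be told apart from injury or line.

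Vim was at 258, 364, 336, 359 and 255 CPM at P63 and 2303, 1674, 2237, 2253 and 1774 CPM at 14 d after SCI in mGfap-Cre RiboTag libraries (log2 2.80 ± 0.17, adjusted p = 3.3e-10). At 14 d its mean was 2048 ± 299 CPM (SD, n = 5) in mGfap-Cre and 2058 ± 288 CPM (SD, n = 4) in Aldh1l1 mice. The line difference was log2 0.06 ± 0.17 (adjusted p = 0.823), with a 95% interval of -0.27 to 0.39, and its sign turned with DESeq2 size factors. Nes was at 14.5, 27.7, 22.2, 28.4 and 22.7 CPM at P63 and 116, 90.00, 105, 88.997 and 72.8 at 14 d (log2 2.12 ± 0.24, adjusted p = 6.6e-07). Synm was at 40.5, 40.9, 46.3, 42.2 and 42.9 CPM at P63 and 71.8, 79.6, 81.3, 85.96 and 70.9 at 14 d (log2 0.96 ± 0.13, adjusted p = 4.29e-06), all 5 injured mice above all uninjured ones. Between the lines at 14 d, Synm was 2.37-fold higher in the mGfap-Cre mice (log2 1.24 ± 0.14, adjusted p = 9.87e-07), 1 of 6 members called where 23.3% of all genes were. With SCI in the mGfap-Cre line 4 of 6 members were called, beside 44.2%, the fourth being Des, described with muscle markers below. Without injury, Vim (log2 0.79 ± 0.17, adjusted p = 0.00265) and Synm (log2 0.57 ± 0.14, adjusted p = 0.00567) were called higher at P63 than in uninjured Aldh1l1 mice, beside 12.4% of all genes. With labelled sex as a covariate neither was called (log2 0.75, adjusted p = 0.0386 for Vim and log2 0.57, adjusted p = 0.0549 for Synm). The Synm call was kept in 3 of 9 fits that left out 1 library, and ended without uninjured mouse 3 or 4 or P63 mouse 2, 3, 4 or 5. Markers of oligodendrocytes (10 genes) summed to 26634 to 40349 CPM in mGfap-Cre and 2060.2 to 2743 CPM in Aldh1l1 astrocyte libraries at 14 d (10 higher and 0 lower of 10 tested). In the Flow libraries of these mGfap-Cre mice the oligodendrocyte markers summed to 11141 to 17688 CPM. Astrocyte markers in their RiboTag libraries summed to 11738 to 25059 CPM. Myeloid markers summed to 316 to 2458 and 12404 to 18849 CPM (0 higher and 12 lower of 12 tested). The part of these lists in the line differences was not tested.

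Astrocyte RNA of mGfap-Cre mice from P0 to P63 shows the family during normal maturation. Against P0, Gfap was higher at every age, Vim was lower from P7 and Nes from P14, and Synm was higher from P21. At P3, P7, P14, P21, P35 and P63, 1, 2, 3, 4, 4 and 4 of the 6 genes were called against P0, beside 4.71%, 18.5%, 46.5%, 38.3%, 41.3% and 49.3% of 18380 genes. These comparisons share the 4 P0 libraries, in which fewer genes were detected and which came from males alone. Gfap was at 2513, 3882, 1971 and 4923 CPM at P0, 16753, 15525 and 16279.9 at P7, 32388, 33081, 35801 and 27979 at P21, 15322, 27088, 18574 and 25239 at P35 and 21622, 27774, 24448, 25973 and 25794 at P63. At these ages all mice lay above P0, and the rise was log2 1.33 ± 0.22 (adjusted p = 0.000167) at P3, log2 3.28 ± 0.22 (adjusted p = 1.82e-13) at P21 and log2 2.92 ± 0.21 (adjusted p = 3.54e-13) at P63. All P35 mice lay below all P21 mice for Gfap, and the difference of log2 -0.58 ± 0.20 (adjusted p = 0.149) missed the threshold. Markers of other cells moved over the same ages. The summed fibroblast markers (6 genes) were at 3863 to 9387 CPM at P0 and 222 to 350.5 at P63 (1 higher and 5 lower of 6 tested). Endothelial markers (5 genes) were at 31.6 to 83.6 CPM and 5.19 to 6.33 CPM (0 higher and 5 lower of 5 tested). Oligodendrocyte markers were at 3127 to 7975 CPM and 9905 to 13977 CPM (8 higher and 0 lower of 10 tested), and astrocyte markers at 5895 to 16388 CPM and 47651 to 53468 CPM (9 higher and 1 lower of 12 tested). Schwann cell markers (7 genes, of which Mbp was also in the oligodendrocyte list) were at 10078 to 29137 CPM at P0 and 6109 to 9080 CPM at P63. The part of these lists in the values by age was not tested.

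Vim was at 967, 858, 1286 and 955 CPM at P0, 545, 406, 364, 561 and 591 at P14, 199.6, 212, 256 and 191 at P35 and 258, 364, 336, 359 and 255 at P63. Against P0 it was at log2 -1.04 ± 0.15 at P14, -2.24 ± 0.16 at P35 and -1.69 ± 0.15 at P63 (adjusted p = 4.21e-07, 6.64e-13 and 2.5e-11). The call at P7 (log2 -0.60 ± 0.17, adjusted p = 0.00744) was kept in 2 of 7 fits that left out 1 library, and ended without P0 mouse 1 or 3 or any P7 mouse. It was lost with labelled sex as a covariate (log2 -0.56, adjusted p = 0.0135). Nes was at 93.3, 122, 217 and 125 CPM at P0, 28.6, 26.5, 42.3, 44.8 and 52.3 at P14 and 14.5, 27.7, 22.2, 28.4 and 22.7 at P63. Its difference from P0 was log2 -1.84 ± 0.28 (adjusted p = 1.36e-06) at P14 and log2 -2.59 ± 0.28 (adjusted p = 3.24e-09) at P63. Synm was at 13.2, 15.5, 27.7 and 19.8 CPM at P0, 49.9, 37.3, 43.9 and 45.4 at P21 and 40.5, 40.9, 46.3, 42.2 and 42.9 at P63. Its rise was log2 1.21 ± 0.24 (adjusted p = 7.87e-05) at P21 and log2 1.16 ± 0.23 (adjusted p = 5.72e-05) at P63. Sync (0 to 3.07 CPM at P0, with 0 reads in mouse 3, and 0.769 to 2.34 at P63) and Des (0.456 to 6.80 and 0.529 to 2.19 CPM) were called at no age. Per kilobase, Gfap and Vim made up 56.8% and 41.2% of the family at P0, and 97.1% and 2.70% at P63.

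Between neighbouring ages, 2 calls were made, for Gfap from P0 to P3 (above) and for Vim from P21 to P35 (log2 -1.07 ± 0.16, adjusted p = 0.000206), a step in which 0.675% of all genes were called. From P3 to P7, P7 to P14, P14 to P21 and P35 to P63, edgeR called 0 members, beside 1.97%, 16.2%, 21.3% and 1.87% of all genes. In these 4 steps 1, 4, 2 and 1 members had an unadjusted p under 0.05. DESeq2 called 1, 1, 1 and 1. These were Gfap (log2 0.95, adjusted p = 0.000649), Nes (log2 -0.90, adjusted p = 0.00922), Synm (log2 0.70, adjusted p = 0.00736) and Vim (log2 0.56, adjusted p = 0.00486). RiboTag libraries of injured adult and newborn mice of this line were also set side by side. At 14 d after SCI, Gfap (log2 2.91 ± 0.21, adjusted p = 5.03e-13), Vim (log2 1.01 ± 0.15, adjusted p = 9.22e-07) and Synm (log2 2.03 ± 0.23, adjusted p = 9.85e-09) were above P0. These are 3 of 6 members, where 51.1% of genes were called. Nes, at 72.8 to 116 CPM after SCI and 93.3 to 217 CPM at P0, missed the threshold (log2 -0.56 ± 0.27, adjusted p = 0.0715, 95% interval -1.09 to -0.03).

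**Figure D4:**
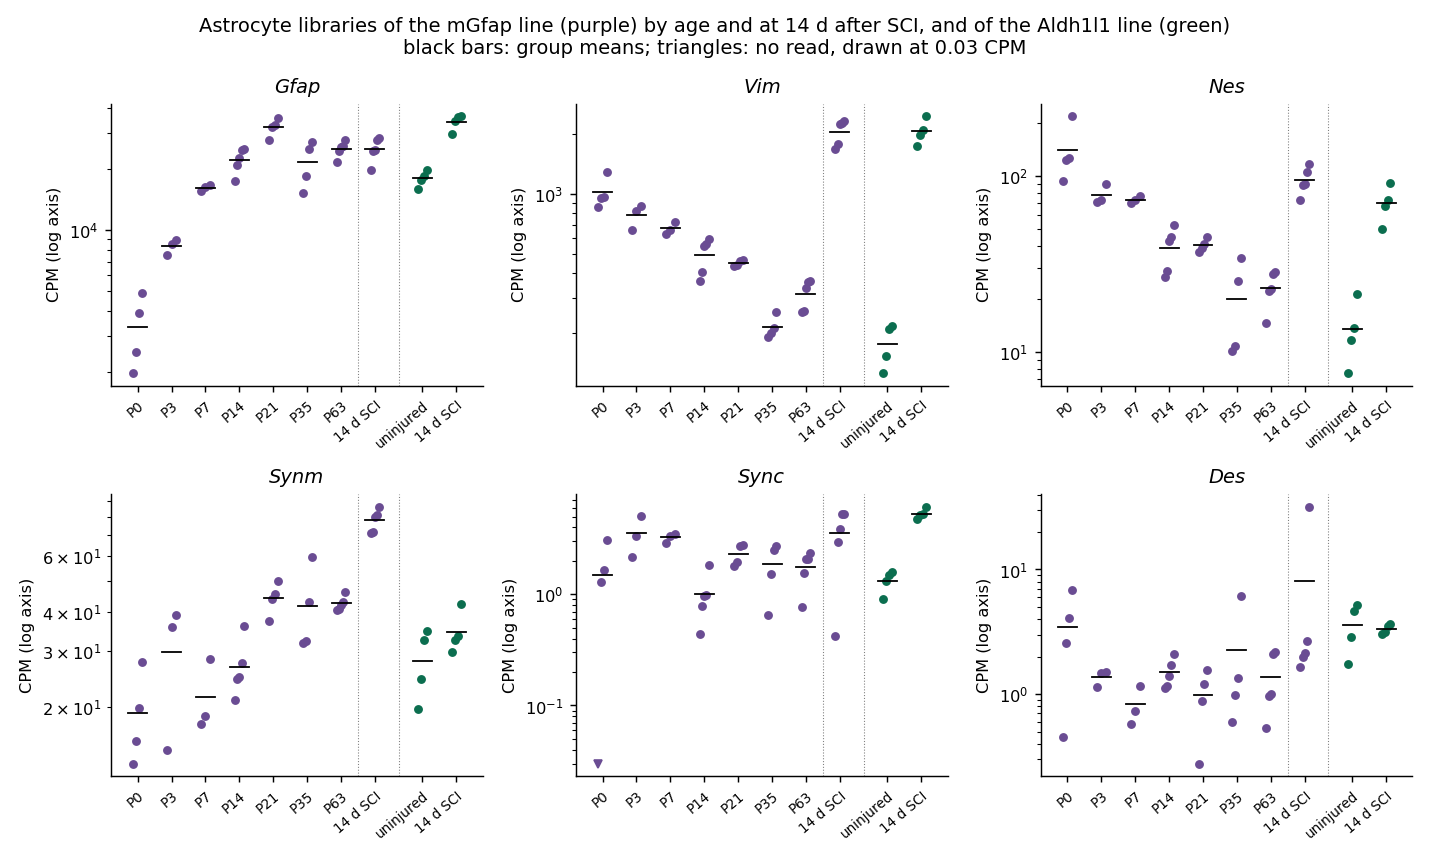
Level in CPM (log axis) of the 6 genes in RiboTag libraries of mGfap-Cre mice at P0 to P63 and at 14 d after SCI, beside Aldh1l1 mice uninjured and at 14 d, with 1 point per library and a bar at each group mean. Gfap is above P0 at every later age and stands at 27979 to 35801 CPM at P21 and 15322 to 27088 at P35, Vim and Nes at P63 lie below P0, and at 14 d after SCI Synm lies higher in the mGfap-Cre than in the Aldh1l1 mice.

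Males and females of the Aldh1l1 line were compared over 5 d and 14 d after SCI, with 8 mice of each sex and the time as a covariate. Vim was at 3319.9 to 3564 CPM in males and 3437 to 4306 in females at 5 d, and Gfap at 31224 to 36117 and 29742 to 36342 at 14 d. The differences of the 6 genes (males over females) lay between -0.09 and 0.19, with a 95% interval of -0.35 to 0.17 for Gfap and -0.20 to 0.12 for Vim. edgeR called 0 of the 6, as did DESeq2, with 0 at an unadjusted p under 0.05, where 0.051% of 17639 genes were called.

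Des stood high together with markers of skeletal muscle in some single libraries, and not in all libraries rich in these markers. In mGfap-Cre mice at 14 d after SCI, Des was at 349, 13.7, 23.2, 28.7 and 17.5 CPM in Flow and 31.8, 2.12, 1.64, 2.68 and 1.99 CPM in RiboTag libraries. Mouse 1 stood far above the other 4 in both. The summed level of 7 skeletal muscle markers was 1803 CPM in the Flow and 150.0 CPM in the RiboTag library of that mouse. With it, Des was called higher at 14 d than at P63 (log2 2.65 ± 0.75, adjusted p = 0.00582), and without its RiboTag library the difference was log2 0.73, adjusted p = 0.0943. The call also ended without P63 mouse 2, 4 or 5, with these 2 groups alone (log2 2.53, adjusted p = 0.0264) and with labelled sex as a covariate (log2 3.12, adjusted p = 0.035). Sync, at 0.420, 3.84, 5.30, 2.97 and 5.25 CPM in these 5 RiboTag libraries and 0.769 to 2.34 CPM at P63, was lowest in mouse 1. Its difference of 1.1 (adjusted p = 0.0377) was called without that library (log2 1.39, adjusted p = 0.000229). Against Aldh1l1 mice at 14 d, the Des difference of 1.32 turned to log2 -0.60, adjusted p = 0.251. Des also stood out in the Flow of Aldh1l1 male 4 at 14 d, at 28.2 CPM with muscle markers at 167 CPM, and in P35 mouse 1, at 6.15 CPM with muscle markers at 114 CPM. In uninjured Aldh1l1 Flow, mouse 1 had the highest Des (10.6 CPM) and muscle markers at 74.2 CPM, against 22.4 to 27.5 CPM in the other mice. In Aldh1l1 42 d RiboTag library 1, muscle markers were at 69.4 CPM, against 8.52 to 18.6 CPM in the other mice. Its Des lay within 5.59 to 6.24 CPM, as in mice 2 and 4. The part of muscle RNA in these values was not tested.

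**Figure D5:**
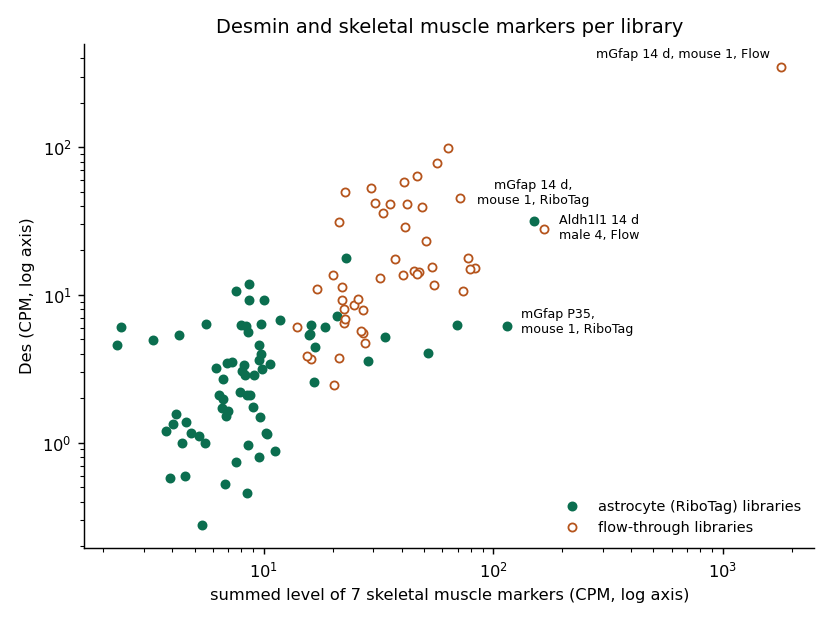
Des level against the summed level of 7 skeletal muscle markers, both in CPM on log axes, with 1 point for each of the 117 libraries, RiboTag and Flow marked apart. Both libraries of mGfap-Cre mouse 1 at 14 d, at 349 and 31.8 CPM of Des, lie at the far right of their kind.

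Other genes that filaments depend on, from lists of known roles, were counted in astrocyte RNA against uninjured mice. The median log2 difference of all genes was -0.04 at 2 d and 0.05 at 70 d. The share of all genes called, in either direction, was 60.1% at 2 d and 56.8% at 5 d. It was 47.3% at 14 d and 45.3% at 70 d. The 3 lamins, which line the nucleus, were 3 higher and 0 lower of 3 tested at 2 d and 3 higher and 0 lower of 3 tested at 70 d, with medians of log2 2.50 and 0.90. Lmna rose by 2.80 ± 0.10 and Lmnb1 by 2.50 ± 0.21 at 2 d, and by 0.90 ± 0.10 and 0.98 ± 0.21 at 70 d. Chaperones and proteases that fold or cut filaments were 9 higher and 0 lower of 9 tested at 2 d and 6 higher and 0 lower of 9 tested at 70 d, with medians of 0.95 and 0.84. Hspb1, a small heat shock protein, rose by 5.97 ± 0.23 at 2 d and 4.25 ± 0.22 at 70 d, and Cryab, the chaperone that binds Gfap, by 2.14 ± 0.12 and 1.45 ± 0.12. Of 10 enzymes that phosphorylate or citrullinate filaments, 7 higher and 1 lower passed at 2 d (median 0.69). Among them were the mitotic kinases Aurkb (3.05 ± 0.32) and Cdk1 (2.70 ± 0.38), higher, and Padi2, which citrullinates Gfap, at -3.07 ± 0.13. At 70 d the enzymes were 2 higher and 2 lower of 10 tested.

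The dystrophin complex, to which Synm can attach, was 0 higher and 5 lower of 6 tested at 2 d, 0 higher and 6 lower of 6 tested at 5 d and 0 higher and 4 lower of 6 tested at 70 d. The medians were log2 -1.02, -0.95 and -0.49. Dtna was at -1.30 ± 0.10 and Dmd at -1.22 ± 0.15 at 2 d, both called lower, while Synm itself was higher. Plakins, which tie filaments to other structures, were split, 3 higher and 1 lower of 7 tested at 2 d and 2 higher and 2 lower of 7 tested at 70 d (medians 0.45 and 0.50). Plec, which links filaments such as Vim, rose by 1.25 ± 0.12 and 0.50 ± 0.12. Neuronal intermediate filaments were 0 higher and 3 lower of 5 tested at 2 d and 0 higher and 4 lower of 5 tested at 14 d (medians -1.55 and -2.33). At 2 d Ina was at -2.30 ± 0.29 and Nefl at -1.63 ± 0.35. Summed markers of neurons (10 genes) in the same astrocyte libraries were 337 to 392 CPM uninjured, 336 to 498 CPM at 2 d (1 higher and 7 lower of 10 tested) and 145 to 176 CPM at 14 d (1 higher and 8 lower of 10 tested), and their part in these counts was not tested. Keratins, of which 10 of 14 were tested, were 1 higher and 2 lower of 10 tested at 2 d and 2 higher and 1 lower of 10 tested at 70 d (medians -0.01 and 0.53). At 70 d the higher ones were Krt18 (4.33 ± 0.87) and Krt8 (4.32 ± 1.01), the keratin pair of simple epithelia. Of 6 transcription factors known at Gfap or Vim, 3 higher and 2 lower passed at 2 d (median 0.37). They included Fos at 2.89 ± 0.22, Jun at 1.67 ± 0.16 and Stat3 at 0.82 ± 0.08 above and Nfia at -1.15 ± 0.10 below uninjured. With age in the mGfap-Cre line, Lmnb1 was at -3.41 ± 0.09 and Lmna at -2.15 ± 0.17 at P63 against P0, both lower as Vim was, and Hspb1 at 2.51 ± 0.36.

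The genes whose log2 CPM followed each member most closely over the 29 female Aldh1l1 astrocyte libraries were named by Pearson's r among 18205 genes. This is a description without a test, since these libraries share time points, depth and cell make-up. They were Me3 (0.960), Prrx2 (0.954) and Arvcf (0.953) for Gfap, Crym (0.984), Timp1 (0.978) and Tagln2 (0.969) for Vim and Trib1 (0.971), Tmem200a (0.971) and Pvr (0.969) for Nes. For Synm they were Met (0.903), Adamts5 (0.903) and Itga3 (0.895), for Sync Tmem123 (0.920), Fgd3 (0.907) and Ahr (0.898) and for Des Tpm2 (0.805), Cenpk (0.797) and Vgll3 (0.758). Among the members themselves, Nes went most closely with Synm (r = 0.824) and Vim with Nes (r = 0.791), whereas Gfap and Nes had r = -0.237. Over the groups, the median coefficient of variation between mice was 13.8% for Gfap, 13.9% for Vim, 17.99% for Nes, 12.96% for Synm, 33.1% for Sync and 32.1% for Des.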

How the data were processed

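RNA-seq of mouse spinal cord gave 70 RiboTag and 47 Flow libraries. The deposited values were raw counts of reads per gene. Before deposit the authors had used Trimmomatic for trimming, HISAT2 for alignment (build mm10) and featureCounts for counting, in versions not given in the sources used here. Each table held 27179 Entrez identifiers, in another order in 18 libraries, and was joined by identifier. RefSeq GRCm38.p6 named 25275 of them. No column was left unused. Libraries were grouped by their labels.

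Counts were tested in R 4.3.3 with edgeR 4.0.16 (quasi-likelihood F test, two-sided, TMM, filterByExpr), with Benjamini-Hochberg adjustment over all genes and FDR under 0.01, in 1 fit per family of comparisons. SE is the log2 difference over the root of F. The 95% intervals use the normal quantile of this SE, which makes them too narrow where a fit has few libraries. Levels are CPM on TMM-scaled totals over all 117 libraries, and totals of 40710428 to 136008399 reads set their precision. A level of 0 reads was bounded by 3 reads, which covers counting error only. Most-like genes used log2 CPM with a prior count of 2. The fit was tested on simulated data.

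The 6 members and the gene lists were chosen with earlier results of these data known. All members were named. From the other lists up to 4 genes per comparison were named, those with the largest log2 difference past the threshold, and for each member the 3 genes with the highest r. RiboTag and Flow libraries with 1 number came from 1 mouse per the labels, so they were paired as a replicate block in an alternative. Their deviations from the group means correlated at r = -0.0262 to 0.521 (median 0.108) over 47 pairs, and 41 RiboTag libraries correlated best with the Flow of the same mouse. Numbers shared across groups name different mice. Alternatives were DESeq2 1.42.0, its size factors, no low-count filter, edgeR's newer fit (edgeR 4), each pair of groups alone, sex as a covariate, added males, FDR under 0.05, the replicate block and each library left out. After the data were seen, 4 were added, which left out mice 2 and 4 at 2 d or mouse 1 of mGfap-Cre at 14 d.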

Additional observations from a re-analysis of the deposited data

Results flagged for a closer look

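Among 156 groups of 4 to 5 libraries, 8 held a library far from the others, 5 of them for Des. By chance about 1 in 20 groups would be flagged over all members together, which is close to the 8 of 156 seen. The 5 Des flags include both libraries of mGfap-Cre mouse 1 at 14 d, and were not tested against chance. The flags were 1 each for Gfap, Nes and Sync, 5 for Des and 0 for Vim and Synm. They were Gfap in 28 d RiboTag library 4 (40479 CPM), Nes in 2 d RiboTag library 1 (1230.1 CPM), Sync in 5 d Flow library 2 (1.04 CPM) and Des in 42 d RiboTag library 3 (the lowest, 0.796 CPM). Des also stood high in 14 d male Flow library 4 (28.2 CPM), in mGfap-Cre 14 d RiboTag library 1 (31.8 CPM) and Flow library 1 (349 CPM) and in P35 library 1 (6.15 CPM). In these 4 libraries the muscle markers were raised too, as given above.

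The change after SCI differed between astrocyte and Flow RNA at 2 d for Vim (log2 1.57), Nes (3.98), Synm (1.69), Sync (6.25) and Des (-2.43), at 5 d for Synm (0.91) and Sync (2.63) and at 14 d for Sync (2.42). It differed at 28 d for Nes (1.21) and Sync (4.94), at 42 d for Sync (2.67) and at 70 d for Nes (1.25) and Sync (2.30). Values of Sync share exonic bases with Rbbp4. The change of Gfap differed between the lines (log2 -0.82). Each of these was tested as a difference of differences, and what they come from was not tested.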

How the results depend on the processing

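Of 1543 member differences under alternatives other than leaving out a library, 1458 kept direction and side of the threshold, as did 1895 of 1988 with 1 library left out. Mean CPM moved by more than 1 SD in 55 of 168 group means when plain library totals replaced TMM. Member calls that changed when the 2 libraries of a mouse were paired as a block are given in the report, and this pairing changed no other. Between groups of different mice, which share only a number, a replicate block ended 3 calls: Synm at P63 against uninjured Aldh1l1 (log2 0.59, adjusted p = 0.0147), Des at 14 d against P63 in mGfap-Cre (log2 1.86, adjusted p = 0.0218) and Vim at P7 against P0 (log2 -0.58, adjusted p = 0.0135). Sync, at few reads, and Des, with 1 library deciding several calls, are the least certain members. The cause of the changes was not tested. The higher among called genes shifted by over 10 points for the change between lines (1376 of 2258 against 1064 of 2172 with DESeq2 size factors) and for P63 against uninjured Aldh1l1 (988 of 2213 against 452 of 729 with sex as a covariate).

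With each pair of groups fitted alone, members were called 3 (main 5) for 70 d against uninjured. With each pair of groups fitted alone, genes were called 2 for 42 d against 28 d and 158 (main 2293) for 70 d against 42 d. With each pair of groups fitted alone, the log2 value of Gfap for mGfap 14 d against mGfap P63 turned to -0.0197. With DESeq2, members were called 4 (main 2) for the fraction difference at 5 d, 2 (main 1) for the fraction difference at 42 d, 2 (main 1) for mGfap 14 d against Aldh1l1 14 d, 2 (main 1) for the change between lines and 1 (main 0) for P7 against P3. Also with DESeq2, members were called 1 (main 0) for P14 against P7, 1 (main 0) for P21 against P14 and 1 (main 0) for P63 against P35. With DESeq2, genes were called 730 for 42 d against 28 d, 1486 (main 866) for P3 against P0, 771 (main 363) for P7 against P3, 320 (main 124) for P35 against P21 and 744 (main 344) for P63 against P35. With DESeq2, the log2 value of Vim for the fraction difference at 5 d turned to -0.00206, Sync for enrichment in mGfap P63 turned to -0.0224 and Vim for mGfap 14 d against Aldh1l1 14 d turned to -0.0125. With DESeq2 size factors, members were called 2 (main 1) for mGfap 14 d against Aldh1l1 14 d. With DESeq2 size factors, the log2 value of Vim for the fraction difference at 5 d turned to -0.00203, Sync for enrichment in mGfap P63 turned to -0.0224 and Vim for mGfap 14 d against Aldh1l1 14 d turned to -0.0125. At FDR under 0.05, members were called 1 (main 0) for 70 d against 42 d, 5 (main 2) for the fraction difference at 5 d, 3 (main 1) for the fraction difference at 14 d, 2 (main 1) for the fraction difference at 42 d and 4 (main 2) for mGfap P63 against uninjured Aldh1l1. Also at FDR under 0.05, members were called 2 (main 1) for mGfap 14 d against Aldh1l1 14 d, 3 (main 1) for the change between lines, 1 (main 0) for P7 against P3, 2 (main 0) for P14 against P7 and 2 (main 0) for P21 against P14. Also at FDR under 0.05, members were called 1 (main 0) for P63 against P35. At FDR under 0.05, genes were called 2795 (main 1348) for 28 d against 14 d, 1094 for 42 d against 28 d, 4288 (main 2293) for 70 d against 42 d, 3978 (main 2213) for mGfap P63 against uninjured Aldh1l1 and 3882 (main 2258) for the change between lines. Also at FDR under 0.05, genes were called 2098 (main 866) for P3 against P0, 5575 (main 3398) for P7 against P0, 939 (main 363) for P7 against P3, 4815 (main 2984) for P14 against P7 and 358 (main 124) for P35 against P21. Also at FDR under 0.05, genes were called 988 (main 344) for P63 against P35. With edgeR 4, members were called 1 (main 0) for P7 against P3. With edgeR 4, the log2 value of Sync for enrichment in mGfap P63 turned to -0.0435. With sex as a covariate, members were called 0 (main 2) for mGfap P63 against uninjured Aldh1l1 and 1 (main 2) for P7 against P0. With sex as a covariate, genes were called 729 (main 2213) for mGfap P63 against uninjured Aldh1l1, 1423 (main 2258) for the change between lines and 533 (main 866) for P3 against P0. With males added, genes were called 7447 (main 4597) for 14 d against 5 d and 2489 (main 1348) for 28 d against 14 d. Without a low-count filter, members were called 2 (main 1) for the fraction difference at 42 d. Without a low-count filter, the log2 value of Sync for enrichment in mGfap P63 turned to -0.00864. With the replicate block, members were called 5 (main 2) for the fraction difference at 5 d, 2 (main 1) for the fraction difference at 14 d, 2 (main 1) for the fraction difference at 42 d, 1 (main 2) for mGfap P63 against uninjured Aldh1l1 and 1 (main 2) for P7 against P0. With the replicate block, genes were called 186 for 42 d against 28 d. With the replicate block, the log2 value of Sync for enrichment in mGfap P63 turned to -0.0435. With 1 library left out at a time, members called were 1 to 2 for the fraction difference at 14 d, 1 to 2 for the fraction difference at 28 d, 1 to 2 for the fraction difference at 42 d, 1 to 2 for the fraction difference at 70 d and 1 to 3 for mGfap P63 against uninjured Aldh1l1. Likewise, members called were 1 to 2 for the change between lines, 1 to 2 for P7 against P0, 0 to 1 for P21 against P14 and 1 to 2 for P35 against P21. Genes called, with 1 library left out, were 475 to 1383 for 28 d against 14 d, 93 to 257 for 42 d against 28 d, 1391 to 2630 for 70 d against 42 d, 374 to 1360 for P3 against P0 and 2133 to 3726 for P7 against P0. Likewise, genes called were 116 to 359 for P7 against P3, 1377 to 2734 for P14 against P7, 56 to 115 for P35 against P21 and 179 to 438 for P63 against P35. Log2 values that crossed 0 with 1 library left out were Gfap -0.0373 to 0.107 for 2 d against uninjured, Des -0.382 to 0.0589 for 14 d against uninjured, Vim -0.0126 to 0.187 for the fraction difference at 42 d, Des -0.451 to 0.0887 for the fraction difference at 42 d and Nes -0.101 to 0.392 for enrichment in uninjured Aldh1l1. Likewise, log2 values were Sync -0.142 to 0.196 for enrichment in mGfap P63, Synm -0.157 to 0.0132 for Flow 2 d against uninjured, Vim -0.0672 to 0.151 for mGfap 14 d against Aldh1l1 14 d, Des -0.598 to 1.59 for mGfap 14 d against Aldh1l1 14 d and Des -0.725 to 1.73 for mGfap 14 d SCI against P0. The log2 values in such fits were Nes -0.0557 to 0.108 for males against females and Synm -0.00157 to 0.11 for males against females.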
